A study of Arabidopsis thaliana and Cucumis sativus and Glycine max with 60 samples.

Results

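The genes described here are the Arabidopsis rows of the 3-zone expression table whose locus names begin with ATMG, the prefix of the mitochondrial genome. They number 145 of 33550 Arabidopsis rows and of 311875 rows for all 6 species in the table. The root tips of seedlings of the cultivar Columbia, 4 days after plating on agarose medium in constant light, were cut along their length into the zone of dividing cells (meristematic, MZ), the zone where cells lengthen (elongation, EZ) and the zone where they mature (differentiation, DZ). Each zone had 3 libraries, which the study's design text calls biological replicates, and no treatment is labelled. Libraries are named by zone and replicate number, so MZ1 is the first of the meristematic zone. Levels are RPKM, the reads of a gene divided by its length and by the library's mapped reads, so levels of different genes are compared per length.

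Mitochondria of flowering plants keep a small genome that encodes their ribosomal RNAs, some transfer RNAs, some ribosomal proteins, cytochrome c maturation proteins and part of the respiratory chain and ATP synthase. The other subunits, and the polymerases, splicing factors and nucleases that make and process mitochondrial RNA, come from nuclear genes. In plant mitochondria a poly(A) tail marks RNA for decay, so a library that selects polyadenylated RNA samples these transcripts differently from nuclear mRNA. The labels give total RNA and an Illumina TruSeq kit, and the sources used here do not say whether polyadenylated RNA was selected. The reference tables name an ATMG locus only where a nuclear gene is noted as its relative or pseudogene. Loci without such a note are called by their locus name alone, with a listed ribosomal RNA role added below for ATMG00020, ATMG01380 and ATMG01390.

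Relative depth, read from the lowest nuclear values and set to 1 in MZ1, was 1.06 in EZ1 and 0.933 in DZ1, and lay between 2.57 and 3.39 in the other 6 libraries. The labelled zones carried their markers. The meristem factor PLT1 averaged 32.3 RPKM in MZ and 0.718 in EZ, the tonoplast aquaporin DELTA-TIP 1183 in EZ and 30.8 in MZ, and the Casparian strip protein CASP1 3313 in DZ and 7.73 in MZ. EZ3 stood apart from its zone, with CASP1 at 296 RPKM against 17.4 and 18.2 in EZ1 and EZ2, and with summed plastid RPKM of 1528 against 92.9 to 619 in the other 8 libraries. MZ3 and DZ1 also differed from their zones in some markers. In MZ3, DELTA-TIP was at 74.7 RPKM against 13.4 and 4.49 in MZ1 and MZ2, and CASP1 at 16.8 against 2.90 and 3.54. PLT1 there was at 18.3 against 37.9 and 40.8, while the MZ marker KNOLLE, at 113, lay between 98.6 and 132. In DZ1, PLT1 was at 5.60 against 0.244 and 0 in DZ2 and DZ3, while CASP1, at 2922, lay between 2186 and 4830.

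Of the 145 mitochondrial genes, 51 were above 0 in at least 1 library and 94 (64.8%) were listed at 0 in all 9. The corresponding share at 0 was 23.8% of nuclear rows and 33.1% of plastid rows. A total of 17 genes were above 0 in every library, 34 in 1 to 8 libraries and 9 in a single library. The number above 0 was 42, 37 and 25 in MZ1 to MZ3, 26, 31 and 39 in EZ1 to EZ3, and 25, 31 and 24 in DZ1 to DZ3. The number at 1 RPKM or more was 24, 18 and 12 in MZ, 19, 17 and 19 in EZ, and 15, 18 and 14 in DZ. The ranges of the 3 zones overlapped on both counts. Of the 51 genes above 0, 25 stayed under 1 RPKM and 8 reached it in 1 or 2 libraries, which left 18 that reached 1 RPKM in 3 or more libraries. These 18 genes were tested; they are 12.4% of the mitochondrial rows, where 58.5% of all Arabidopsis rows met the same filter.

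**Figure D1:**
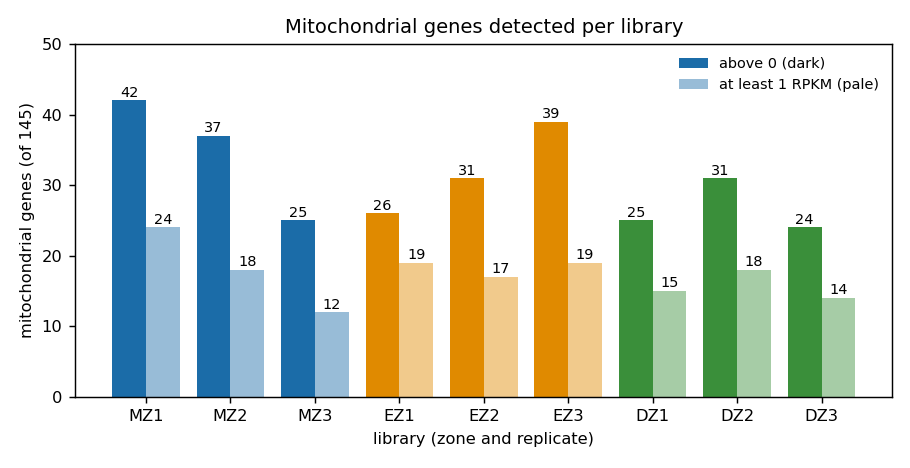
Number of the 145 mitochondrial genes above 0 (dark bars) and at 1 RPKM or more (pale bars) in each library, coloured by zone. Counts above 0 run from 24 in DZ3 to 42 in MZ1, and the zones overlap.

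The zeros were not spread evenly over the mitochondrial genes. The reference notes a nuclear relative or pseudogene for 53 of them, all at loci on chromosome 2, where Arabidopsis carries a large insertion of mitochondrial DNA. Of these 53 genes, 44 (83.0%) were at 0 in every library, none passed the filter, and the highest value was 1.57 RPKM. Of the 92 genes without such a note, 50 (54.3%) were at 0 in every library, 18 passed the filter, and the highest value was 970 RPKM. The noted nuclear loci were also listed at 0 or under 1 RPKM. Of 55 loci, 39 were listed at 0 in every library and none reached 1 RPKM, with a highest value of 0.843. In the locus range AT2G07660 to AT2G07799, 97 of 131 rows (74.0%) were at 0 in all 9 libraries. The 5 rows of highest mean there were the replication helicase subunit gene MCM5 (AT2G07690, mean 16.5 RPKM), the transporter gene ABCC13 (AT2G07680, 11.7), the transcribed pseudogene AT2G07711 (0.917), the OB-fold protein gene AT2G07715 (0.336) and the ATPase alpha subunit gene AT2G07698 (0.186).

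The notes give a protein name other than unknown for 24 mitochondrial genes, and 20 of these were at 0 in all 9 libraries. Among these 20 were ATMG00220 (apocytochrome b, of respiratory complex III), ATMG00730 (cytochrome c oxidase subunit 3, of complex IV), ATMG01190 (ATP synthase subunit 1), ATMG00990 (NADH dehydrogenase 3, of complex I) and ATMG00210 (ribosomal protein L5). They were picked as examples after their values were seen. The 4 named genes above 0 stayed low. ATMG00960, a cytochrome c assembly protein, reached 0.287 RPKM and ATMG00560, an OB-fold nucleic acid-binding protein, 0.278. ATMG01090, whose note reads ATP synthase 9 mitochondrial, reached 0.189, and ATMG01280, related to cytochrome c oxidase subunit II, 0.164. The last 2 were also singled out after their values were seen. ATMG01080, added for contrast and noted as mitochondrial F0-ATPase subunit 9, was at 0 in all 9 libraries. A search of the reference assembly TAIR10.1 gave the extent of the shared sequence. At 99% identity or more, chromosome 2 matched 72.8% of that assembly's mitochondrial genome. It covered at least 95% of the coding sequence of 21 of 32 protein genes and of 15 of 17 transfer RNA genes, and of none of the 3 ribosomal RNA genes. Of the other protein genes, atp6 (86.9%), nad1 (71.9%), nad5 (71.9%), rpl16 (40.6%) and rps3 (9.93%) were covered in part at that identity, and atp4, ccmB, cox1, cox2, nad4L and nad9 had no such match. TAIR10.1 does not pair these gene names with ATMG loci, and the sources used here do not say how reads that match both genomes were counted, so their part in the zeros was not tested.

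4 genes carried most of the mitochondrial signal, between 89.4% and 96.4% of the summed RPKM of all 145 in a library. Of these, ATMG00020, ATMG01380 and ATMG01390 were listed here as mitochondrial ribosomal RNAs, a role that the reference used does not pair with them. ATMG00030 stood at 970, 273 and 144 RPKM in MZ1 to MZ3, at 859, 366 and 505 in EZ1 to EZ3, and at 789, 572 and 335 in DZ1 to DZ3. ATMG01390 stood at 582, 188 and 81.8 in MZ, 543, 265 and 304 in EZ, and 470, 429 and 190 in DZ. ATMG00020 stood at 584, 194 and 79.6 in MZ, 481, 248 and 302 in EZ, and 398, 307 and 144 in DZ. For these 3 genes the zones overlapped, the lowest and highest of the 9 values both lay within MZ, and the library numbered 1 was the highest of each zone. ATMG01380 was lower and more variable, at 215, 35.1 and 9.08 RPKM in MZ and 45.5, 41.2 and 79.4 in EZ. In DZ it was listed at 0 in DZ1 and stood at 47.1 and 27.7 in DZ2 and DZ3.

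**Figure D2:**
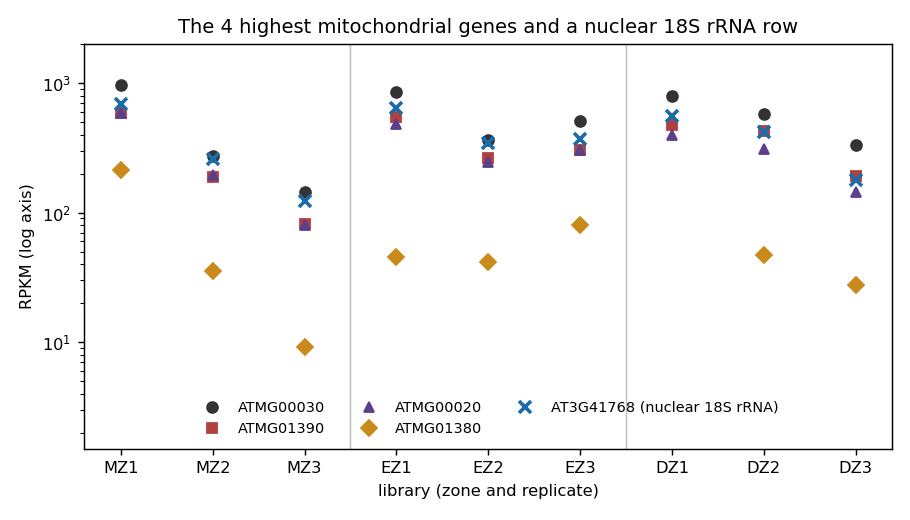
RPKM on a log axis of the 4 mitochondrial genes of highest mean level and of the nuclear 18S ribosomal RNA row AT3G41768 in each library. ATMG00030, ATMG01390 and ATMG00020 move together from library to library with the nuclear row, from their lowest values in MZ3 to their highest in MZ1; ATMG01380 at 0 in DZ1 is not drawn.

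The 3 highest genes varied less relative to each other than in level. The ratio of ATMG00030 to ATMG01390 lay between 1.33 and 1.76 in the 9 libraries. The ratio of ATMG01390 to ATMG00020 was 0.996, 0.969 and 1.03 in MZ, 1.13, 1.07 and 1.01 in EZ, and 1.18, 1.40 and 1.32 in DZ. The ratio of ATMG00030 to ATMG00020 was 1.66, 1.41 and 1.81 in MZ, 1.79, 1.48 and 1.67 in EZ, and 1.98, 1.86 and 2.32 in DZ. In both ratios to ATMG00020 every DZ value lay above those of the other zones, while EZ and MZ overlapped. These ratios were singled out after their values were seen, and they were not tested. By contrast, the level of ATMG00020 differed by 7.34-fold between its lowest and highest library.

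Summed over all 145 genes, the level was 2511, 745 and 345 RPKM in MZ1 to MZ3, 2042, 968 and 1331 in EZ1 to EZ3, and 1719, 1409 and 727 in DZ1 to DZ3. These sums were 0.0321% to 0.250% of the summed Arabidopsis RPKM of a library. The means were 1200 ± 1153 (SD, n = 3) in MZ, 1447 ± 546 in EZ and 1285 ± 508 in DZ, so the spread within MZ was larger than any difference between zone means. The ratio of means was 1.21 for EZ against MZ (exact two-sided permutation p = 0.7), 0.888 for DZ against EZ (exact p = 0.8) and 1.07 for DZ against MZ (exact p = 1.0), where 3 libraries against 3 cannot give a p below 0.1. Without MZ1 the ratio was 2.66 for EZ against MZ and 2.36 for DZ against MZ. In these bulk samples, fewer cells of a type and less RNA per cell cannot be told apart. Within pairs of the same replicate number, EZ stood at 0.813, 1.30 and 3.86 times MZ, and DZ at 0.842, 1.46 and 0.546 times EZ, so the direction differed between numbers in both comparisons.

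The levels of the highest genes, among them the listed ribosomal RNAs ATMG00020, ATMG01380 and ATMG01390, went with that of 1 nuclear ribosomal RNA row. AT3G41768, annotated as nuclear 18S ribosomal RNA, stood at 690, 257 and 123 RPKM in MZ, 641, 343 and 373 in EZ, and 555, 416 and 179 in DZ. It ranged 5.63-fold over the 9 libraries and the summed mitochondrial genes 7.28-fold, while the summed nuclear RPKM ranged 1.23-fold. The sum of the 4 highest mitochondrial genes followed AT3G41768 with Pearson r = 0.984 (exact permutation p = 5.51e-06, Benjamini-Hochberg adjusted over 3 relations 1.65e-05) and Spearman rho = 0.983 (exact permutation p = 4.96e-05, adjusted 0.000149). Without the 2 libraries farthest from the median of AT3G41768 its r was 0.975, and over the 6 libraries numbered 2 and 3 it was 0.956.

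The other 141 mitochondrial genes followed AT3G41768 less closely. Their sum had r = 0.734 (exact permutation p = 0.0272, adjusted 0.0407) and rho = 0.817 (exact permutation p = 0.0108, adjusted 0.0162). Without the 2 farthest libraries r was 0.43 (exact permutation p = 0.35) and rho 0.714 (exact permutation p = 0.0881), so the Pearson relation rests on those 2 libraries. The sum of plastid rows, the third relation computed, had r = 0.295 (exact permutation p = 0.489, adjusted 0.489) and rho = 0.583 (exact permutation p = 0.108). The 9 points include 3 zones and share library, depth and kit. The libraries numbered 1, in which AT3G41768 and the 3 highest mitochondrial genes were highest of their zone, were also the 3 of least depth; the part of depth and of RNA selection in these levels was not tested.

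**Figure D3:**
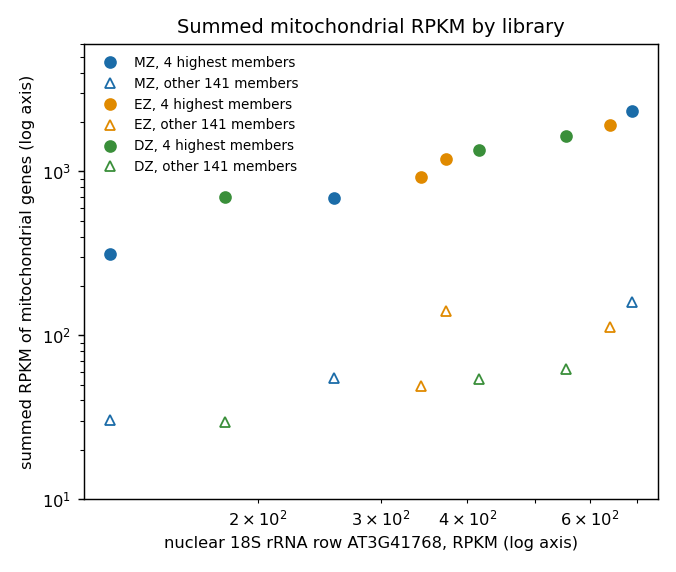
Summed RPKM of the 4 highest mitochondrial genes (filled circles) and of the other 141 (open triangles) against the nuclear 18S ribosomal RNA row AT3G41768 in the 9 libraries, coloured by zone, both axes logarithmic. The filled points rise together from MZ3 to MZ1 with the zones mixed, while the open points scatter more, with EZ3 high at 141 RPKM.

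Below these 4, the 14 other tested genes had mean levels between 0.721 and 10.3 RPKM over the 9 libraries. ATMG00080 and ATMG00090 had identical values in every library, at 18.6, 5.33 and 3.04 RPKM in MZ, 13.2, 6.46 and 32.4 in EZ, and 6.10, 4.99 and 2.24 in DZ. The sources used here do not say whether both rows were counted from the same reads, so the pair may be 1 measurement, although it is counted as 2 genes here. Their EZ values lay above all DZ values, with the highest in EZ3, while MZ overlapped both. ATMG00070 was also highest in EZ3, at 14 RPKM against 6.53 and 1.85 in EZ1 and EZ2. ATMG00660 had the narrowest range of the tested genes above 0 in every library, 3.94-fold, at 14.3, 9.58 and 9.17 RPKM in MZ, 11.9, 6.31 and 8.91 in EZ, and 7.12, 4.11 and 3.63 in DZ. Its MZ values all lay above its DZ values, and EZ overlapped both. ATMG00670, the lowest of the tested genes, stood at 1.94, 0.780 and 0.404 in MZ, 1.18, 0.366 and 1.06 in EZ, and 0.376, 0.174 and 0.205 in DZ. Every MZ value again lay above every DZ value, the closest being 0.404 in MZ3 and 0.376 in DZ1. It reached 1 RPKM in MZ1, EZ1 and EZ3 alone, so it passed the filter only through zones where it was high. Its lower DZ level is therefore not independent of the filter, and the gene was singled out after its values were seen.

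The remaining tested genes overlapped in all 3 pairs of zones. ATMG01120 ran from 1.61 to 16.9 RPKM over the 9 libraries, ATMG01130 from 2.48 to 14.6, ATMG00060 from 0.743 to 11.7 and ATMG00640 from 1.48 to 7.5. ATMG00160 ran from 0.958 to 6.28, ATMG01360 from 0.914 to 5.19, ATMG00690 from 0.485 to 3.82 and ATMG01370 from 0.623 to 8.18. ATMG00650 was listed at 0 in MZ3 and reached 15.1 RPKM in EZ1. Across the 18 tested genes, MZ1 was the highest MZ library for 18 and MZ3 the lowest for 17, and EZ2 was the lowest EZ library for 18. DZ1 was the highest DZ library for 12 and DZ3 the lowest for 15. The genes thus ranked the libraries of a zone in much the same way.

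**Figure D4:**
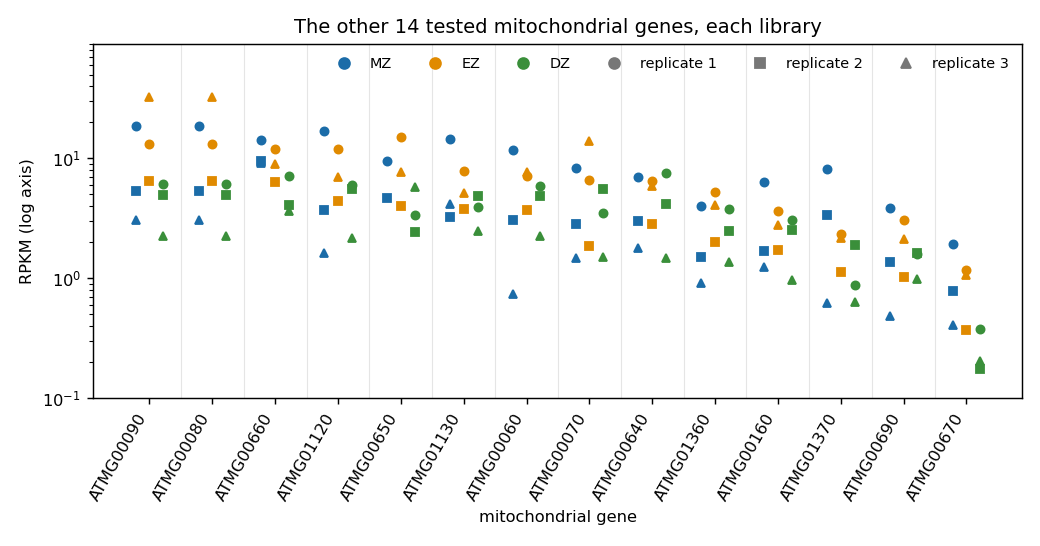
RPKM on a log axis of the 14 tested mitochondrial genes other than the 4 highest, 1 symbol per library, coloured by zone with the replicate number as the symbol's shape; values of 0 are not drawn. MZ1 is the highest MZ value of every gene, and for ATMG00660 and ATMG00670 all MZ values lie above all DZ values. ATMG00670 passed the filter through MZ and EZ libraries alone.

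Several genes above 0 did not pass the filter. ATMG00110 reached 1.58 RPKM in MZ1 and ATMG00516 reached 1.23 in DZ2, with 2 and 1 libraries at 1 RPKM or more. ATMG01170 was above 0 in all 9 libraries and never above 0.624 RPKM, which made it the single gene detected throughout but not tested. ATMG00510 and ATMG00520 were above 0 in 8 libraries, up to 0.45 and 0.130 RPKM, and ATMG00513 in 7, up to 0.473. ATMG00570 was above 0 in MZ1 alone (0.168 RPKM) and ATMG00830 in EZ3 alone (0.0777 RPKM).

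Differences between zones were tested with limma on log2(RPKM + 1) over all 19640 Arabidopsis genes that passed the filter, with Benjamini-Hochberg adjustment over all of them. Calls needed a change of at least 2-fold with an adjusted p under 0.05. On this scale the changes of low genes are understated. From MZ to EZ, 0 of the 18 mitochondrial genes were called, where 38.7% of all genes tested were. By the same test 0 of the 18 had an unadjusted p under 0.05, and 0 of 18 had EZ and MZ values that did not overlap, where 68.2% of all genes tested did not. Their median log2 change was 0.54 and 14 of 18 were positive, against a median of 0.03 over all genes tested. The largest value was that of ATMG00650, 1.19 ± 0.81 (SE; limma adjusted p = 0.232), and the interval of ATMG00030, from -0.83 to 2.20, spanned both a decrease and an increase. Without MZ1, ATMG00030 passed the call as higher in EZ, with 1.44 (adjusted p = 0.0495), and without MZ3, ATMG01370 passed it as lower, with -1.16 (adjusted p = 0.0474).

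From EZ to DZ, again 0 of 18 genes were called, against 36% of all genes tested, and 3 had an unadjusted p under 0.05. These were ATMG00660, with a log2 change of -0.76 ± 0.30 (limma adjusted p = 0.0636, and 0.00897 with the replicate block, under 2-fold and so not called in either), and the identical rows ATMG00080 and ATMG00090, with -1.56 ± 0.69 (adjusted p = 0.0861). The median was -0.46 and 0 of 18 were positive, against a median of -0.13 over all genes tested. ATMG00080 and ATMG00090 were also the 2 of 18 genes whose EZ and DZ values did not overlap, where 55.4% of all genes tested did not. They passed the call, with -2.08 (adjusted p = 0.0485), without EZ2 and, with -1.68 (adjusted p = 0.0494), under quantile normalization. ATMG00660 passed it without DZ1, with -1.01 (adjusted p = 0.0248).

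From MZ to DZ, 1 of 18 genes was called, where 62.1% of all genes tested were, and 32.3% were called lower. ATMG00660 fell by 1.03 on the log2 scale, ± 0.30 (SE; limma adjusted p = 0.0119), and was the 1 gene with an unadjusted p under 0.05. Its fold change lay just past 2, and the call was lost without MZ1 (-0.85), DZ2 (-0.95) or DZ3 (-0.87), with libraries rescaled to equal summed nuclear RPKM (-0.92), and with each library divided by AT3G41768 (-1.35, adjusted p = 0.128). It was also lost without the 3 libraries numbered 3 (-0.98, adjusted p = 0.0518), where ATMG01370 was the 1 gene called (-1.45, adjusted p = 0.0242). ATMG00670 averaged 1.04 RPKM in MZ and 0.252 in DZ. On the log2(RPKM + 1) scale its change was -0.64 ± 0.29 (limma adjusted p = 0.0701, and 0.0415 with the replicate block), under 2-fold on that scale in both fits. Under quantile normalization ATMG00670 (-1.0, adjusted p = 0.00669) and ATMG01370 (-1.27, adjusted p = 0.0448) passed the call. ATMG00660 and ATMG00670 were the 2 of 18 genes without overlap between MZ and DZ, where 84.4% of all genes tested had none. ATMG00670 had passed the filter through MZ and EZ libraries alone. Its part in this count and its call under quantile normalization are therefore not independent of the filter. The median over the 18 was -0.16, equal to that over all genes tested, with 7 of 18 positive. Without MZ1, ATMG00030 and ATMG01390 passed the call as higher in DZ, with 1.42 and 1.44 (adjusted p = 0.0327 and 0.0404), and without MZ3, ATMG01370 passed it as lower, with -1.62 (adjusted p = 0.00786).

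**Figure D5:**
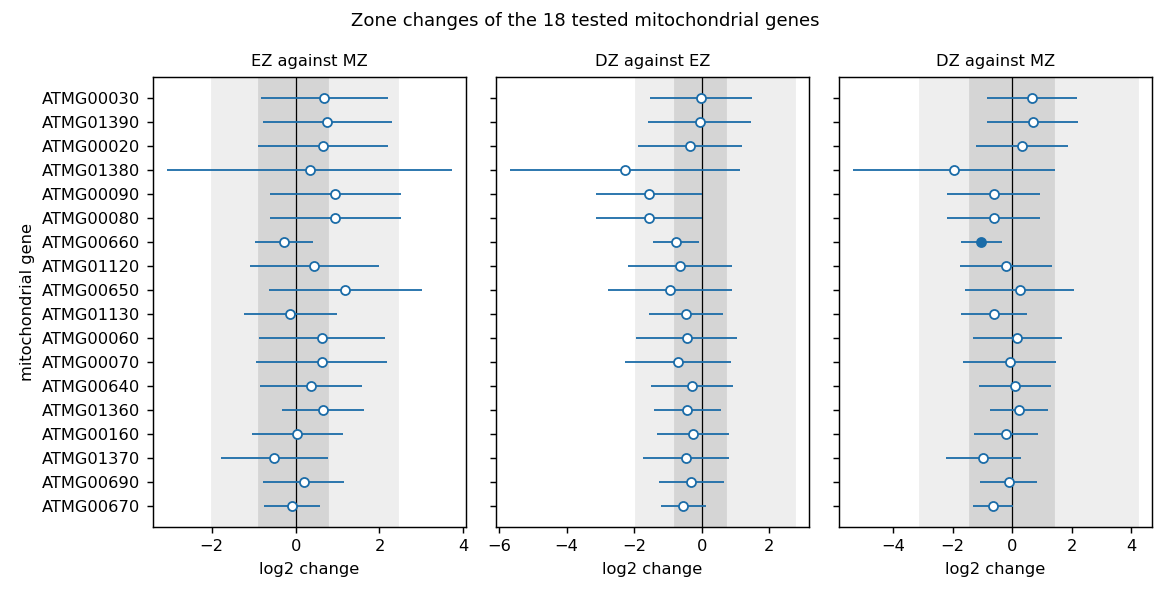
Log2 change with its 95% interval for the 18 tested mitochondrial genes in the 3 zone comparisons, from limma on log2(RPKM + 1), with the filled point called and open points not called. Dark and pale grey bands mark the middle 50% and 90% of all genes tested; the intervals of most mitochondrial genes are as wide as the dark band or wider.

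The few calls went with a wide spread between replicates and with smaller changes. The median residual SD of the 18 genes was 0.94 on the log2 scale, from 0.39 in ATMG00670 and ATMG00660 to 2.19 in ATMG01380. It was 0.32 over all genes tested, and 95.9% of those lay below the mitochondrial median. The median standard error of a zone change was 0.66 for the mitochondrial genes and 0.26 for all. The mitochondrial gene called, ATMG00660 (-1.03 from MZ to DZ), had a residual SD of 0.39, among the lowest. The size of change that could be detected with these libraries was not computed. On the log2(RPKM + 1) scale the median absolute change of the mitochondrial genes was also smaller than that of all genes tested. It was 0.57 against 0.82 from MZ to EZ, 0.46 against 0.76 from EZ to DZ, and 0.46 against 1.40 from MZ to DZ. Changes of low genes are understated on this scale, and 14 of the 18 averaged 0.721 to 10.3 RPKM. The parts of spread and of size of change in the few calls were not tested.

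Set against AT3G41768 in the same library, most of the tested genes varied less than they did as levels. As a ratio, 15 of the 16 tested genes above 0 in every library had a narrower range than as a level, the exception being ATMG00660. ATMG00020 stood at 75 ± 9.90% of AT3G41768 in MZ, 76.1 ± 4.58% in EZ and 75.4 ± 4.63% in DZ (SD, n = 3), so its ratio did not differ beyond the replicate spread (exact permutation p = 1.0, 0.7 and 1.0 for EZ against MZ, DZ against EZ and DZ against MZ). ATMG00030 stood at 141, 106 and 118% in MZ, 134, 107 and 136% in EZ, and 142, 138 and 187% in DZ. ATMG01390 stood at 84.3, 73.1 and 66.7% in MZ, 84.8, 77.2 and 81.5% in EZ, and 84.7, 103 and 106% in DZ, each DZ value above each MZ value. This scale was chosen after the data were seen, and AT3G41768 itself differed between libraries.

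The ratio of EZ and MZ overlapped for all 18 genes, where 28% of all genes tested did not overlap on the same scale. Between EZ and DZ, 3 of 18 did not overlap, against 36% of all genes: ATMG00030 was higher in DZ, and ATMG00080 and ATMG00090 were lower. Between MZ and DZ, 7 of 18 did not overlap, against 46.4% of all genes. ATMG01390 was higher in DZ, and ATMG00080, ATMG00090, ATMG00660, ATMG00160, ATMG01370 and ATMG00670 were lower, the last a gene that passed the filter through MZ and EZ libraries alone. ATMG00080 and ATMG00090 fell from 2.42 ± 0.316% in MZ to 1.18 ± 0.0756% in DZ without overlap (exact permutation p = 0.1, the smallest possible here). ATMG00160 stood at 0.856 ± 0.182% in MZ and 0.562 ± 0.0359% in DZ, at the same smallest p. Summed without the 4 highest genes, the ratio was 23.1 ± 1.74% in MZ, 23.2 ± 12.8% in EZ and 13.5 ± 2.65% in DZ, where MZ and DZ did not overlap and EZ3 stood at 37.8%.

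Nuclear genes that supply mitochondria were called far more often in some lists than in others. Of 10 genes for mitochondrial transcription, RNA decay and DNA maintenance, 9 were called lower from MZ to EZ, where 20.4% of all genes tested were. The 1 not called, AT5G02250, also fell, from 8.13 ± 1.26 to 4.04 ± 0.281 RPKM. On the log2(RPKM + 1) scale its change was under 2-fold (-0.85 ± 0.19, limma adjusted p = 0.00581). The median log2 change was -1.93. AT1G30680, a toprim domain protein gene, fell from 20.0 ± 1.78 to 2.91 ± 1.22 RPKM (SD, n = 3; log2 change -2.47 ± 0.38, limma adjusted p = 0.00141). AT5G14580, which encodes a polyribonucleotide nucleotidyltransferase, an RNA-degrading enzyme, fell from 21.9 ± 3.93 to 3.36 ± 1.48 RPKM (log2 change -2.45 ± 0.40). Of 8 splicing and RNA helicase genes, 7 were called lower, led by the putative mitochondrial RNA helicase PMH1 (119 ± 20.7 to 18.6 ± 11 RPKM, log2 change -2.82 ± 0.66) and by BIR6 (-2.27 ± 0.39). The other, OTP43, fell from 1.89 ± 0.558 to 0.489 ± 0.171 RPKM. On the log2(RPKM + 1) scale its change was under 2-fold (-0.95 ± 0.20, limma adjusted p = 0.00461), so it was not called. At that EZ level OTP43 can have passed the filter only through MZ and DZ libraries, so its fall is not independent of the filter. All 6 chaperone and prohibitin genes of the list fell, with PHB4 at -2.34 ± 0.48 and the chaperonin HSP60 at -2.16 ± 0.58.

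Nuclear genes listed for the respiratory chain were seldom called between the same zones. From MZ to EZ, 0 of 10 complex I genes and 0 of 7 complex V genes were called, with median log2 changes of 0.23 and 0.32. Of 12 genes of complexes II to IV and cytochrome c, 1 was called higher, against 18.3% of all genes tested: CYTC-2, a cytochrome c gene, rose from 52.5 ± 15.3 to 189 ± 66.4 RPKM (log2 change 1.82 ± 0.30, limma adjusted p = 0.00186). From MZ to DZ 9 of 10 genes of transcription, decay and maintenance, 7 of 8 of splicing and 6 of 6 of chaperones were called lower, where 32.3% of all genes tested were. There the largest changes in these lists were those of AT5G14580 (-3.36 ± 0.40), MGP3 (-3.16 ± 0.44), PMH1 (-4.05 ± 0.66), BIR6 (-2.74 ± 0.39), HSP60 (-3.89 ± 0.58) and PHB4 (-3.23 ± 0.48). GLDH, whose enzyme makes ascorbate, was the 1 gene of the complex I list called, at -1.69 ± 0.30, and CYTC-2 was higher at 1.91 ± 0.30. The 3 comparisons share libraries, so these counts are not independent of each other.

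Of 5 alternative oxidase genes, whose enzyme bypasses complexes III and IV, 2 passed the filter. AOX1A was at 29.3 ± 5.13 RPKM in MZ, 51.3 ± 8.43 in EZ and 143 ± 15.3 in DZ. It rose from EZ to DZ by 1.46 ± 0.19 on the log2 scale (limma adjusted p = 0.00045) and from MZ to DZ by 2.25 ± 0.19 (adjusted p = 2.68e-05), where 19.6% and 29.8% of all genes were called higher. AOX2 fell from EZ to DZ, from 1.85 ± 1.16 to 0.180 ± 0.0642 RPKM (log2 change -1.20 ± 0.30, adjusted p = 0.00987). At that DZ level AOX2 can have passed the filter only through MZ and EZ libraries, so this call at low levels is not independent of the filter. The other genes called from EZ to DZ were GLDH (-1.10 ± 0.30) and HSP60 (-1.73 ± 0.58), so 4 of the 55 nuclear genes tested in the 7 lists were called there, where 36% of all genes were. This last count ranged widely with single libraries, at 11 without EZ3 and without DZ1, and 2 without EZ2 and without DZ3.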

How the data were processed

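RNA was sequenced from 9 Arabidopsis libraries. The deposited table holds RPKM values that the authors computed per gene and library, each column stacking 6 species; Arabidopsis rows were taken by locus name. Per the labels, reads were mapped with Ensembl release 19 (TAIR10) annotation, and FastQC and TopHat2 were used, per the submitters' processing notes. The sources used here do not give the counting tool, gene lengths, strand, treatment of multiply matching reads or RNA selection. The files hold no read counts, so depth is relative, from ratios of nuclear values under 0.5 RPKM. A value of 0 is given as listed, since it can be a failed estimate.

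Rows that reached 1 RPKM in 3 or more libraries were fitted with limma 3.58.1 in R 4.3.3 (lmFit, eBayes with trend and robust estimation) on log2(RPKM + 1), zone as the factor, all 9 libraries together; tests were two-sided with Benjamini-Hochberg adjustment, and the code was tested on simulated data. Single values were compared by exact permutation. Deviations of libraries with the same replicate number correlated at 0.18 to 0.31 between MZ and EZ, 0.14 to 0.46 between EZ and DZ and 0.09 to 0.14 between MZ and DZ, and the labels do not say what a number marks. Correlations between libraries of different numbers were not computed for comparison, so these values do not settle whether the numbers mark pairs.

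Named were the mitochondrial genes above 0 of a list of respiratory, cytochrome c maturation, ribosomal, maturase and transport loci, the 5 other loci of highest mean, called genes, the 2 genes of largest change in each direction per nuclear list and comparison, and the 5 highest chromosome 2 rows; others are marked where named. Members and lists were chosen with earlier results of these data known. List roles that the reference does not pair with ATMG loci were not used, apart from the ribosomal RNA role given for ATMG00020, ATMG01380 and ATMG01390. Copies were searched with BLAST+ 2.17.0 in TAIR10.1; its coordinates and sequences were not used, as the labels name another build. Alternatives were the pseudocount (0.1), filters, scalings, the replicate block and left-out libraries. Tables were handled with Python 3.11.15 and pandas 2.3.3, and plots drawn with matplotlib 3.10.9.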

Additional observations from a re-analysis of the deposited data

How the results depend on the processing

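The count of 18 mitochondrial genes called was 0 from MZ to EZ and 0 from EZ to DZ, and 1 from MZ to DZ. With the replicate block these counts were 0, 0 and 1, and the block changed no call of a mitochondrial gene. With it the adjusted p fell under 0.05 for ATMG00660 from EZ to DZ and ATMG00670 from MZ to DZ. Both changes were under 2-fold on the log2(RPKM + 1) scale. Quantile normalization gave 2 from EZ to DZ and 3 from MZ to DZ, where 38.1% and 62.8% of all genes tested were called. Rescaling to equal summed nuclear RPKM gave 0 from MZ to DZ, where 61.3% of all genes tested were called. With each library divided by AT3G41768, an alternative chosen after the data were seen, 1 of 19 genes from MZ to DZ was called, against 46.6% of all. It was ATMG01380 in place of ATMG00660. ATMG01380 is listed at 0 in DZ1, and its ratio to AT3G41768 overlapped between MZ and DZ (exact permutation p = 0.5). Leaving out 1 library at a time gave 0 to 1, 0 to 2 and 0 to 2 genes called. The ratio of summed means ran from 0.889 to 2.66 for EZ against MZ, from 0.738 to 1.12 for DZ against EZ and from 0.789 to 2.36 for DZ against MZ when 1 library was left out. It turned to 0.93 for EZ against MZ and to 0.437 for DZ against MZ without the 3 highest genes, where DZ against EZ was 0.47. Without the 4 highest genes the ratios were 1.23 for EZ against MZ, 0.481 for DZ against EZ and 0.593 for DZ against MZ. Below 1 were EZ against MZ without MZ3 (0.889) or EZ1 (0.958), and DZ against MZ without MZ2 (0.9), MZ3 (0.789) or DZ1 (0.89); above 1 was DZ against EZ without EZ1 (1.12) or DZ3 (1.08). With 3 libraries a zone no exact permutation p can fall below 0.1, so that test cannot establish any of these directions. Signs of single changes differed from those reported in 29 of 337 refits from MZ to EZ, 20 of 336 from EZ to DZ and 30 of 336 from MZ to DZ. The median of all genes moved by 0.11 log2 units with nuclear rescaling in both comparisons with MZ, and by -0.55, 0.27 and -0.29 with division by AT3G41768. Of the nuclear genes in 7 lists, refitted by alternatives chosen after the data were seen, 23 were called from MZ to EZ and 25 from MZ to DZ, with all refits within 1.5 times. The 4 called from EZ to DZ became 7 under quantile normalization, 2 without the 3 libraries numbered 1, 7 without the 3 numbered 3, 2 in a fit of those zones alone, 0 with division by AT3G41768, and 2 to 11 with 1 library left out. The cause of these shifts was not tested. Calls of mitochondrial genes with changes near 2-fold moved between these settings. The size of change that 3 libraries a zone can resolve was not computed.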
